A study of Mus musculus with 18 samples.

Results

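This account covers 17024 CpG-dense regions of the mouse genome that lost DNA methylation in acute myeloid leukaemia cells. They were selected on measured values from the authors' deposited table of regions that differ between KO and AML cells. A region was taken if it lies on chromosomes 1 to 19, if its methylation level was at least 0.2 lower in AML than in KO, and if it held at least 0.05 cytosine sites per base. The table lists 96225 regions on those chromosomes, so the selected regions are 17.7% of them; 53740 others lost methylation at lower site density, 11702 dense and 7816 sparse regions gained it, and 5943 differed by less than 0.2. Because the rule used the KO and AML levels, these levels are given below as a description, with no test.

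The study had 4 groups of mouse cells, all on the C57BL/6 strain. The AML group is C-Kit+ spleen cells from NHD13/Setd2 KO mice with leukaemia. The KO group is hematopoietic stem and progenitor cells (HSPCs) from the bone marrow of NHD13/Setd2 KO mice, and the NHD13 group is HSPCs of NHD13/Setd2 flox/flox mice. WT is C57BL/6 HSPCs. The first 3 groups all carry the Nup98-HoxD13 (NHD13) transgene, and AML and KO also carry the Setd2 deletion made by Mx1-Cre, a recombinase switched on by interferon that also acts outside the blood. Each group had 3 RNA-seq libraries and 1 bisulfite library, and H3K36me3 ChIP-seq was made from 1 library of NHD13 AML and 1 of KO AML spleen cells. AML differs from KO in disease stage, in organ and in sorted cells at once, and these cannot be told apart. The sources used here give neither animal ages nor whether RNA replicates came from separate animals. The p-values below therefore cover only how far these libraries differ among themselves, and that spread may be technical.

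DNA methylation in mammals is placed on the cytosine of CpG pairs. Most CpGs of the genome are methylated, while CpG-rich promoters are usually free of the mark, and a few such promoters, at imprinted genes, carry it on the copy from a single parent. Setd2 writes H3K36me3 over transcribed gene bodies, a mark that the de novo DNA methyltransferases Dnmt3a and Dnmt3b can bind. In myeloid cells, loss of methylation at granule and enhancer sequences accompanies normal maturation.

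The word dense needs a limit. For the 28 selected regions that lie wholly within a promoter window of the RefSeq table, the deposited number of sites was above the number of CpGs in all 28, and in 22 of them it equalled the number of CpG cytosines on both strands. It was at most that number in 25 of the 28, so this reading does not hold for every region. The median was 2 sites per CpG, and these 28 regions had a median of 3.85 CpGs per 100 bases. Sites below are therefore read as cytosines counted over both strands, and 4341 of the 17024 regions held 4 of them, 7148 held 5 to 9, and 368 held 50 or more.

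The sequences below are promoter windows, from 250 bases before to 50 bases after a RefSeq transcript start, at 8 of the selected regions (RefSeq, GRCm38.p6, which is mm10; written 5′ to 3′ on the strand of the gene). Capitals mark the CpGs that lie inside the region. The first 3 show the CpG-packed promoters, the next pair the imprinted locus that holds the region with the most sites, and the last 3 the CpG-poor promoters, of which Ngp and Fcnb are neutrophil genes.
Phf2, chr13:48870836-48871135, minus strand: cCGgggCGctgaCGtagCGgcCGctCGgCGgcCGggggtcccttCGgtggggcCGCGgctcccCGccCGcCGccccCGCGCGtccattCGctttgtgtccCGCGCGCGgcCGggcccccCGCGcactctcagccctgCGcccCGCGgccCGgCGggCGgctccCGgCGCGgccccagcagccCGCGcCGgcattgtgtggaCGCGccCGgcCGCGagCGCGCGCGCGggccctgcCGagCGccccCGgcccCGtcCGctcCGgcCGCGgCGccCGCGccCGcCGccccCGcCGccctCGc
Sppl3, chr5:115011274-115011573, plus strand: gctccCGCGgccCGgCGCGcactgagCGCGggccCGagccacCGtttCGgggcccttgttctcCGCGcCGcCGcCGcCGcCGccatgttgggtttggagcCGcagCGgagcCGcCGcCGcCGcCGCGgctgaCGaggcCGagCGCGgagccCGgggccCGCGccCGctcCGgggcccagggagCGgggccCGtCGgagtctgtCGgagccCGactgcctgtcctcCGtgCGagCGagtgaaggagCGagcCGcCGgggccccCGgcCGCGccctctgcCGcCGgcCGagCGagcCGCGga
Jak2, chr19:29251553-29251852, plus strand: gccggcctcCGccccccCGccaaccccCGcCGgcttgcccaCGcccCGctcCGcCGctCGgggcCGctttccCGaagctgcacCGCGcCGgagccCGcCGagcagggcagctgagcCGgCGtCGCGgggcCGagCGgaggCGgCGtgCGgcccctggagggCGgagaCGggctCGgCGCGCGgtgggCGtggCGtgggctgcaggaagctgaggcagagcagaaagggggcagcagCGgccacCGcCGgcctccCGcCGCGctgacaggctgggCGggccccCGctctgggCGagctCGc
Commd1, chr11:22972817-22973116, minus strand: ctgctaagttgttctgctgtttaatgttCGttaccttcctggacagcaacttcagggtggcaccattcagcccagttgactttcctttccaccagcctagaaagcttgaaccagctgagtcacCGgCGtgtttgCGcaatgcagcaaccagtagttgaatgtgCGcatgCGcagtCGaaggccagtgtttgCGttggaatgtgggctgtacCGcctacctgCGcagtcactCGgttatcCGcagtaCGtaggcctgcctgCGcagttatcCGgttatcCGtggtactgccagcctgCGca
Zrsr1, chr11:22971755-22972054, plus strand: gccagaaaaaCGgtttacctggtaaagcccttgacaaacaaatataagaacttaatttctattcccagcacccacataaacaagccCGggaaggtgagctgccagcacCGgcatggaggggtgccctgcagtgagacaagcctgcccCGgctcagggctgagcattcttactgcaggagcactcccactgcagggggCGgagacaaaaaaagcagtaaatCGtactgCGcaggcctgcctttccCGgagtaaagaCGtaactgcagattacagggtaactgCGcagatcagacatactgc
Ngp, chr9:110419558-110419857, plus strand: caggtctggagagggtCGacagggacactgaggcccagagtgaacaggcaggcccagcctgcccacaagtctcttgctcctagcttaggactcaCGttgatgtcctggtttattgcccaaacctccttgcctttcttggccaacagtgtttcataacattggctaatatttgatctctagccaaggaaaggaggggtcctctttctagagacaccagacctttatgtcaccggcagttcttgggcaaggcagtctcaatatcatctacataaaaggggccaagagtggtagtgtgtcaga
Fcnb, chr2:28084829-28085128, minus strand: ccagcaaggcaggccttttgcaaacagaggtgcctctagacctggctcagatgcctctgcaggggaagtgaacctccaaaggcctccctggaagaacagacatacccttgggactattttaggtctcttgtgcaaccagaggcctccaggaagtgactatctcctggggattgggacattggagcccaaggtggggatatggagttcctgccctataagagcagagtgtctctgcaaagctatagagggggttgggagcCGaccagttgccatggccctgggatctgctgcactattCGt
Asb2, chr12:103355952-103356251, minus strand: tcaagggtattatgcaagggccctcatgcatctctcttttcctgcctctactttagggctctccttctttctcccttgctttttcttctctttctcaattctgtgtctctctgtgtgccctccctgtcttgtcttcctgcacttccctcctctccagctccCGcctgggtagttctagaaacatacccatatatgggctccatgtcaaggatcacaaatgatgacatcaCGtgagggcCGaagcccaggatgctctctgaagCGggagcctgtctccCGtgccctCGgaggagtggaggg

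The Phf2 window held 63 CpGs inside the region, the Sppl3 window 54 and the Jak2 window 43. The Commd1 and Zrsr1 windows held 17 and 10, Asb2 held 6, and Ngp and Fcnb held 2 each. Regions that met the same rule thus lay at both CpG-rich and CpG-poor promoters.

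The selected regions were short and scattered. Their median length was 95 bases, with a range of 51 to 2997 bases, and their median number of sites was 6, with a range of 4 to 266. In all they covered 2746 kb and 191057 sites. The median distance to the next selected region was 79854 bases, and only 475 of 17005 neighbouring pairs lay within 2000 bases. Their share of all regions ran from 15.9% on chromosome 14 to 20.6% on chromosome 9.

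Methylation was intermediate in AML and high in KO for most of them. The median level was 0.511 in AML and 0.820 in KO, and the median difference, AML minus KO, was -0.28. Size changed this picture. Among the 4341 regions of 4 sites, the median was 0.494 in AML and 0.844 in KO. Among the 368 regions of 50 or more sites, it was 0.196 in AML and 0.579 in KO. In that largest class 50.3% of regions were below 0.2 in AML, against 7.92% of the regions of 4 sites. The large regions were thus of intermediate level in KO and low in AML, and the small ones were high in KO and intermediate in AML. The depth behind each level is unknown, so no interval can be set on a level.

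**Figure D1:**
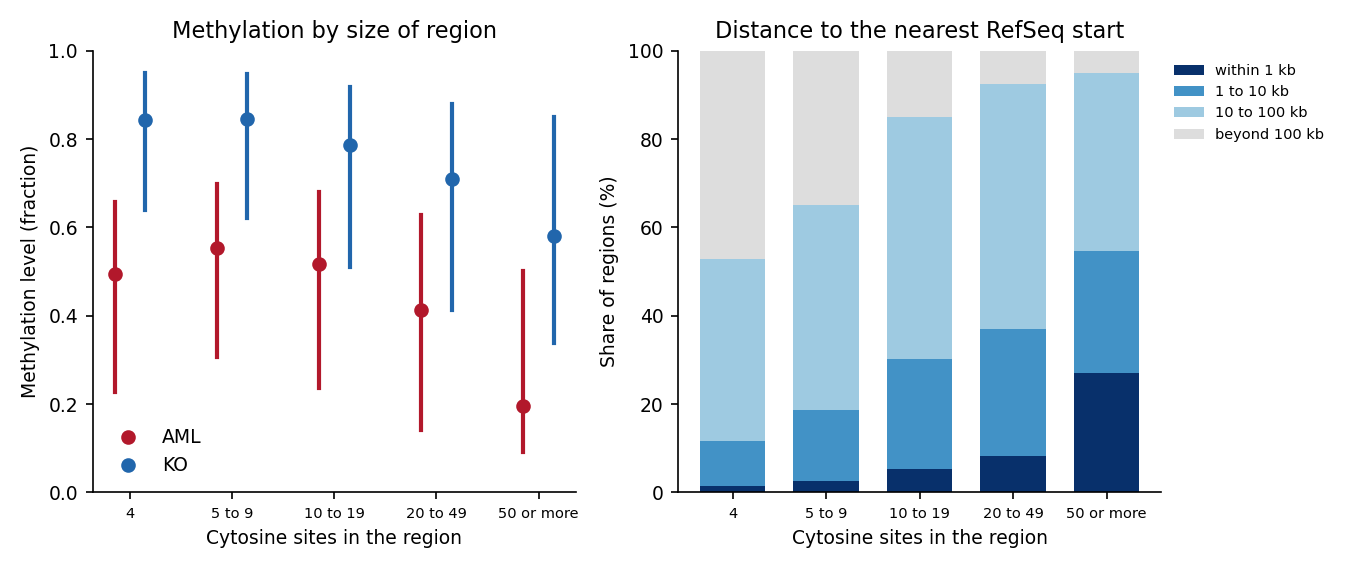
Left, methylation level (fraction) of the selected regions by number of sites, AML in red and KO in blue, with the point at the median and the line from the 10th to the 90th percentile over regions. Right, share of regions (%) by distance to the nearest RefSeq start. The AML median is 0.196 in regions of 50 or more sites, and 27.0% of those lie within 1 kb of a start, against 1.36% of regions of 4 sites.

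At the thresholds, the values of neighbours were nearly the same. The 5 regions just inside the limit on the fall had a difference, AML minus KO, of -0.200005 to -0.200029, and the 5 just outside had -0.199914 to -0.199994. Of the selected regions, 12.3% had a fall below 0.22, and 20.7% had a density below 0.055 sites per base. At the limit on density, 263 regions had exactly 0.05 sites per base, and the 5 just outside had 0.0499 sites per base.

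The region with the most sites lay at the imprinted Commd1 and Zrsr1 locus, at chr11:22971610-22974430. Zrsr1, a splicing factor gene, sits inside an intron of Commd1, a copper-handling and NF-kB regulator, and in mouse Zrsr1 is expressed from the paternal copy. Its 266 sites had a level of 0.094 in AML and 0.555 in KO. Camk2b, a calcium-dependent kinase gene, followed at chr11:6006146-6008083, with 239 sites at 0.094 in AML and 0.553 in KO. A region within Cep85, a centrosome gene, at chr4:134159433-134162429 had 222 sites at 0.103 in AML and 0.438 in KO. Over the 10 regions with the most sites, levels ran from 0.0581 to 0.349 in AML and from 0.356 to 0.615 in KO, and 6 of the 10 overlapped a promoter window.

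The levels of the other 2 groups at these 10 regions come from the authors' tables of other comparisons, over regions with other borders. Of the 10, 6 overlapped a region lower in NHD13 than in WT, 1 overlapped a region higher in NHD13, and 3 overlapped neither. At Sppl3, a signal peptide peptidase gene, the region was at 0.117 in AML and 0.518 in KO, and the overlapping region was at 0.144 in NHD13 and 0.328 in WT. At Gng10, a G protein subunit gene, the region was at 0.0581 in AML and 0.365 in KO, against 0.137 in NHD13 and 0.440 in WT for the overlapping region. At Commd1 the overlapping region ran the other way, 0.651 in NHD13 and 0.460 in WT. For the same Sppl3 promoter, the table that sets KO against NHD13 gave 0.530 in KO and 0.143 in NHD13. That table shares the KO library with the one used for selection, so these values stand only side by side.

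The deepest falls among regions of 20 or more sites had levels of 0.062 to 0.219 in AML and 0.720 to 0.890 in KO. The first was a region with no RefSeq gene within 1000 bases, at chr11:105156780-105157535, with 47 sites at 0.103 in AML and 0.890 in KO. The next, in the body of Pdxdc1 at chr16:13867570-13868425, had 95 sites at 0.102 in AML and 0.837 in KO. A region of 81 sites at the clock gene Nr1d1 and the thyroid hormone receptor gene Thra, at chr11:98767908-98768834, was at 0.070 in AML and 0.720 in KO. None of the 10 overlapped a promoter window, and 4 lay in an H3K36me3 peak of NHD13 AML.

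Most selected regions were away from promoters. A promoter window was overlapped by 218 of 16462 regions on the 18 chromosomes with windows, a share of 1.32% (95% Wilson interval 1.16 to 1.51%). Over all regions of the table the share was 2.82%, and over dense regions that gained methylation it was 15.4%. Over sparse regions that lost methylation it was 0.444%, below that of the selected regions. The share again went with size, with 19.2% of regions of 50 or more sites at a promoter, against 0.239% of those of 4 sites. These classes also differ in length (median 763 and 65 bases) and in site density, and the part of each was not tested. Within a RefSeq gene widened by 1000 bases lay 9002 regions, or 52.9%, close to the 50.8% of all regions. The median distance to a start was 39543 bases overall and 7957 bases for regions of 50 or more sites. With 1 bisulfite library per group these shares cannot be tested over samples, and all intervals on shares cover counting error only.

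**Figure D2:**
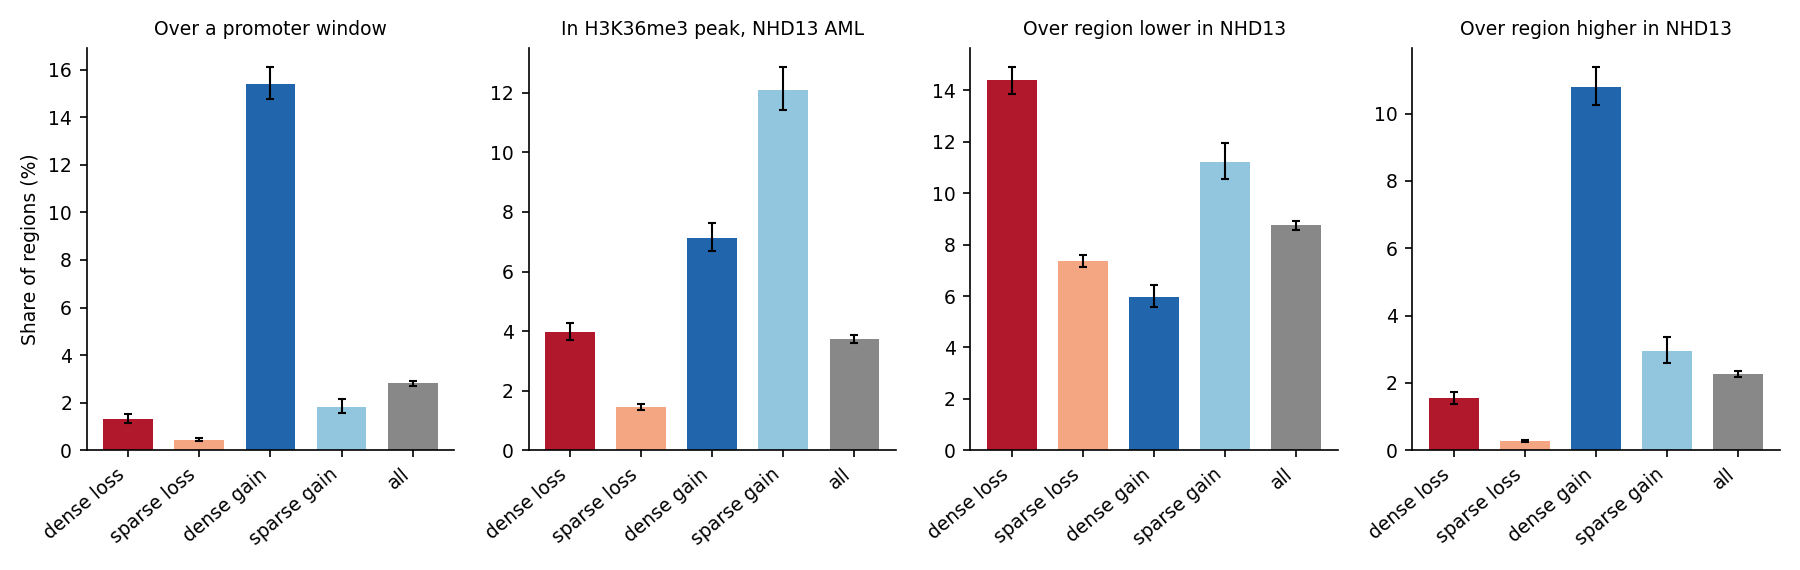
Share of regions (%) that overlap a promoter window, an H3K36me3 peak of NHD13 AML, and a region lower or higher in NHD13 than in WT, for 4 classes of region and for all regions; the lines are 95% Wilson intervals. The selected regions (dense loss) stand at 14.4% over regions lower in NHD13 and at 1.54% over regions higher in NHD13.

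The 218 promoter regions had a median of 0.295 in AML and 0.590 in KO, against 0.511 and 0.820 over all selected regions. They were also larger, with a median of 26 sites against 6. Selected regions of 20 to 49 sites had medians of 0.413 in AML and 0.710 in KO. Whether promoter regions differ in level at equal size was not tested. The windows at promoter regions had a median of 9 CpGs, against 7 in all 31396 windows and 16 in windows at dense regions that gained methylation. At promoter regions of 50 or more sites the median was 26.5 CpGs. The letters CGCG were present in 38.3% of the 248 windows at selected regions and in 38.5% of all windows, read as given since this motif is its own reverse complement. The share was 74.4% for windows at selected regions of 50 or more sites and 65.9% for windows at dense gains.

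H3K36me3 peaks covered few of the selected regions. In NHD13 AML, whose list holds 29945 peaks over 190 Mb, 676 regions overlapped a peak, or 3.97% (Wilson interval 3.69 to 4.27%), against 3.73% of all regions. In KO AML, with 16776 peaks over 28.2 Mb, 86 regions did, or 0.505% (0.409 to 0.623%), against 0.6% of all regions. Both lists held 77 of these regions, which is 11.4% of those in NHD13 AML peaks and 89.5% of those in KO AML peaks. The 2 lists differ in total length, and each rests on 1 library, so the numbers describe the lists and not a change in the mark.

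Larger regions were more often in peaks. Of regions with 4 sites 0.829% overlapped an NHD13 AML peak, of those with 20 to 49 sites 9.99%, and of those with 50 or more 13.3%. At equal size the dense gains of 4 sites reached 8.77%, and those of 50 or more sites 2.37%. Of the 676 regions in NHD13 AML peaks, 97.9% lay within a widened gene and 6 overlapped a promoter window.

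A share of the selected regions also differed between NHD13 and WT, a comparison with no library in common with the one used for selection. A region lower in NHD13 than in WT was overlapped by 2448 of the 17024, or 14.4% (Wilson interval 13.9 to 14.9%), against 8.75% of all regions and 5.98% of dense gains. The overlapping regions are 5.62% of the 43388 in that list. A region higher in NHD13 was overlapped by 263, or 1.54% (1.37 to 1.74%), against 2.27% of all regions and 10.8% of dense gains, and these are 3.21% of the 8257 in that list. The overlapping regions that were lower had a median of 0.496 in NHD13 and 0.820 in WT, while the 2448 selected regions there had a median of 0.444 in AML and 0.737 in KO.

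The overlap moved with region size. It was 4.98% for regions of 4 sites, 24.1% for 10 to 19 sites, 31.6% for 20 to 49 sites and 25% for 50 or more, so the share was lower again in the largest class. By the middle base of each region it was 27.1% for 20 to 49 sites and 13.9% for 50 or more. At equal size, sparse losses of 20 to 49 sites overlapped a region lower in NHD13 at 47.6%, and dense gains of that size at 7.02%. Sparse losses of 4 sites overlapped such a region at 2.79%. Of the 676 regions in NHD13 AML peaks, 252 overlapped a region lower in NHD13.

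Beyond the methylation tables, RNA-seq asked what the genes at these regions did. Library totals ran from 18673704 to 28127686 counts, and 16233 genes were tested with edgeR's quasi-likelihood test and Benjamini-Hochberg adjustment over all of them. In AML against KO, 42.8% of all tested genes were higher and 39.5% lower at an adjusted p under 0.05, so a call is the usual state of a gene here. Other scalings moved the median log2 change of all genes from 0.08 to -0.11 with upper-quartile factors. Setd2 itself had 183, 187 and 179 CPM (counts scaled to library size) in AML, 33.1, 29.2 and 34.9 CPM in KO, a mean of 33.5 CPM in NHD13 and 42.1 CPM in WT. Counts over a whole gene do not check a deletion of some exons. Kit, the marker used to sort AML cells, averaged 215 ± 2.98 CPM in AML and 101 ± 5.28 CPM in KO (SD, n = 3 each).

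RefSeq places 6155 genes at a selected region, 13.1% of 47038, and 2635 of them were tested. Of these, 1412 (53.6%) were higher in AML, 743 (28.2%) lower, and 480 did not pass, with a median log2 change of 0.57, against 0.10 over all tested genes placed on these chromosomes. Gene length stands beside this result. The median body of tested genes at a region was 53.4 kb, against 19.2 kb for all, and the change in AML went with transcript length. Over 5 classes of transcript length, the median log2 change was -1.08, -0.51, 0.07, 0.46 and 0.92, from the shortest to the longest. After a correction for transcript length, 1162 genes at regions were higher and 966 lower, with a median of 0.17, against -0.08 over all placed genes.

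Tested genes were also put into 4 classes of equal number by gene body. In the shortest class, up to 7.3 kb, 189 genes with a region had a median log2 change of 0.02, against -0.71 for 3278 genes without one. In the next class the medians were 0.32 with a region and -0.12 without, and in the class after it 0.55 with a region and 0.17 without. In the longest class, 1440 genes with a region had a median of 0.68 and 2027 without had 0.69. The medians of genes with and without a region thus lay apart in the 3 shorter classes and together in the longest. Of genes at dense gains 50.7% were higher and 31.7% lower, and of genes at sparse losses 52.4% were higher and 29.6% lower.

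**Figure D3:**
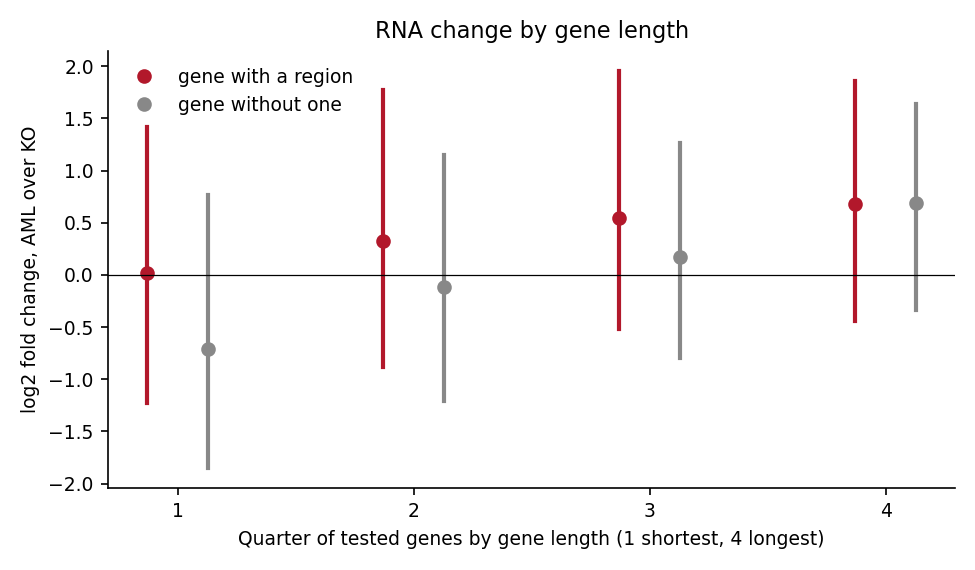
Log2 fold change of AML over KO by 4 classes of tested genes, from the shortest to the longest gene body, for genes with a selected region (red) and without (grey); points are medians and lines run from the 25th to the 75th percentile over genes. The medians meet at 0.68 and 0.69 in the longest class.

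In the 2 earlier comparisons the genes at a region had the following counts. In KO against NHD13, 603 of the 2635 were higher (22.9%, background 20.6%) and 725 lower (27.5%, background 20.3%). In NHD13 against WT, 790 were higher (29.98%, background 25.3%) and 902 lower (34.2%, background 28.7%). The median log2 changes of the genes at a region were 0.00 and -0.07.

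The genes with the most regions are among the longest of the genome. Ptprd, a receptor tyrosine phosphatase, held 39 regions, Macrod2 25, Lsamp 23, Gpc5 19 and the immunoglobulin kappa locus Igk 19. Lingo2, Robo2, Nrxn3, Cadm2 and Cntnap2, mostly neuronal adhesion genes, held 18 each. Of these 10 only Macrod2, an ADP-ribose hydrolase, passed the filter on low counts. It had 0 counts in all 3 AML libraries and 1.26, 1.56 and 0.759 CPM in KO. Against a floor of 3 counts over the AML group, it was at least 28.8-fold lower in AML.

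The largest rises at a region were of genes near silence in KO. Zic1, a zinc finger factor of neural development, had 36.5, 40.2 and 35.3 CPM in AML and 0 counts in the KO libraries, as in the NHD13 and WT libraries, which makes it at least 827-fold higher in AML. Its region held 37 sites. Dnase1l3, a secreted nuclease, had 24.7, 24.1 and 23.7 CPM in AML and 0.0527, 0 and 0 CPM in KO. Actn1, an actin crosslinker with a region of 77 sites, averaged 103 ± 1.15 CPM in AML and 1.98 ± 0.162 CPM in KO (SD, n = 3 each), a log2 change of 5.69 ± 0.10 (SE; edgeR, adjusted p = 9.06e-19). The others by the same rule were Asb2, Shtn1, Zfhx4, Ntng2, Sdc3, Lipg and Ptk7, and the rule took only genes whose AML and KO libraries did not overlap.

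The largest falls included markers of other blood cells. Slc25a21, a mitochondrial carrier with 4 regions, had 0 counts in AML and 26.6, 29.8 and 24.8 CPM in KO, at least 653-fold lower in AML. The chemokine genes Ccl4 and Ccl3 share 1 region, and Ccl4 had 1.47, 1.06 and 0.975 CPM in AML and 138, 129 and 132 CPM in KO. Cpa3, a mast cell protease, had 5.34, 4.47 and 6.01 CPM in AML and 249, 244 and 223 CPM in KO. Epx, the eosinophil peroxidase, averaged 0.267 ± 0.130 CPM in AML and 10.8 ± 3.36 CPM in KO (SD, n = 3 each). Over the whole list of mast cell, basophil and eosinophil genes, 9 of 13 tested fell and 2 rose, with summed levels of 362 to 381 CPM in AML and 925 to 1005 CPM in KO. Of all tested genes 39.5% were lower and 42.8% higher. In such bulk samples fewer cells of a type and less RNA per cell cannot be told apart, and the part of other cells in these results was not tested. The rest by this rule were Ccdc90b, Got1, Susd5, Lmna and Cela1.

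A promoter window of 227 genes overlapped a selected region, and 108 of these were tested. In AML against KO, 62 of them (57.4%) were higher, 20 (18.5%) lower and 26 did not pass, with a median log2 change of 1.09. Over all tested genes placed on chromosomes 1 to 19, 43.7% were higher and 39.5% lower, with a median of 0.10. After the correction for length, 61 promoter genes were higher and 30 lower, with a median of 0.84, against -0.08 over all placed genes. Genes with a dense gain at the promoter had 34.8% higher and 40.6% lower, and those with a sparse loss there had 69.5% higher and 15.3% lower. In the deposited FPKM values, 48.4 to 50.3% of the 161 listed promoter genes reached 1 FPKM in AML libraries and 34.8 to 35.4% in KO libraries, against 30.6 to 30.8% in AML and 27.4 to 27.6% in KO over all 33975 genes placed.

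Among promoter genes that rose, Zbtb7b, a zinc finger repressor, had 79.7, 82.9 and 75.9 CPM in AML and 3.64, 2.17 and 2.47 CPM in KO. Its promoter region, at chr3:89387711-89387982, was at 0.243 in AML and 0.481 in KO. Islr, an immunoglobulin-domain gene, had 27.0, 29.9 and 29.5 CPM in AML and 0.632, 0.989 and 1.33 CPM in KO, with a region of 132 sites at 0.473 in AML and 0.873 in KO. Cic, a transcriptional repressor, averaged 199 ± 13.9 CPM in AML and 14.8 ± 1.63 CPM in KO (SD, n = 3 each), a log2 change of 3.75 ± 0.14 (SE; edgeR, adjusted p = 1.62e-12). Asb2, a ubiquitin ligase subunit, had 16.1, 17.0 and 17.1 CPM in AML and 0 counts in KO, at least 370-fold higher, while its region was still at 0.556 in AML, against 0.769 in KO. Abca13, a lipid transporter, averaged 59.5 ± 0.294 CPM in AML and 2.38 ± 0.118 CPM in KO, and Fmnl2, an actin nucleator, 30.7 ± 0.666 CPM in AML and 2.25 ± 0.661 CPM in KO.

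Promoter genes fell as well. Ccl3 had 4.57, 4.47 and 3.86 CPM in AML and 220, 206 and 198 CPM in KO, although its region, at chr11:83649605-83649942, was nearly free of methylation in AML, at 0.057 against 0.375 in KO. Gng5, a G protein subunit gene, fell to 52.8 ± 1.64 CPM in AML, against 505 ± 18.4 CPM in KO (SD, n = 3 each; log2 change -3.26 ± 0.08 SE, edgeR adjusted p = 3.25e-17). The start of Spata1 shares that window. The cell cycle gene Ccne1 fell to 16.1 ± 0.411 CPM in AML, against 52.1 ± 1.67 CPM in KO. Cd63, Commd1 and Grhpr were the other 3. The Commd1 window is that of a RefSeq transcript start inside the region that also holds the Zrsr1 start. It need not be the main start of Commd1, since Zrsr1 sits inside an intron of that gene. Loss of promoter methylation thus stood beside both higher and lower RNA. Of the 108 tested promoter genes 62 (57.4%) were higher and 20 (18.5%) lower, and 61 and 30 after the length correction. Over all tested genes placed on chromosomes 1 to 19, 43.7% were higher and 39.5% lower before that correction.

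**Figure D4:**
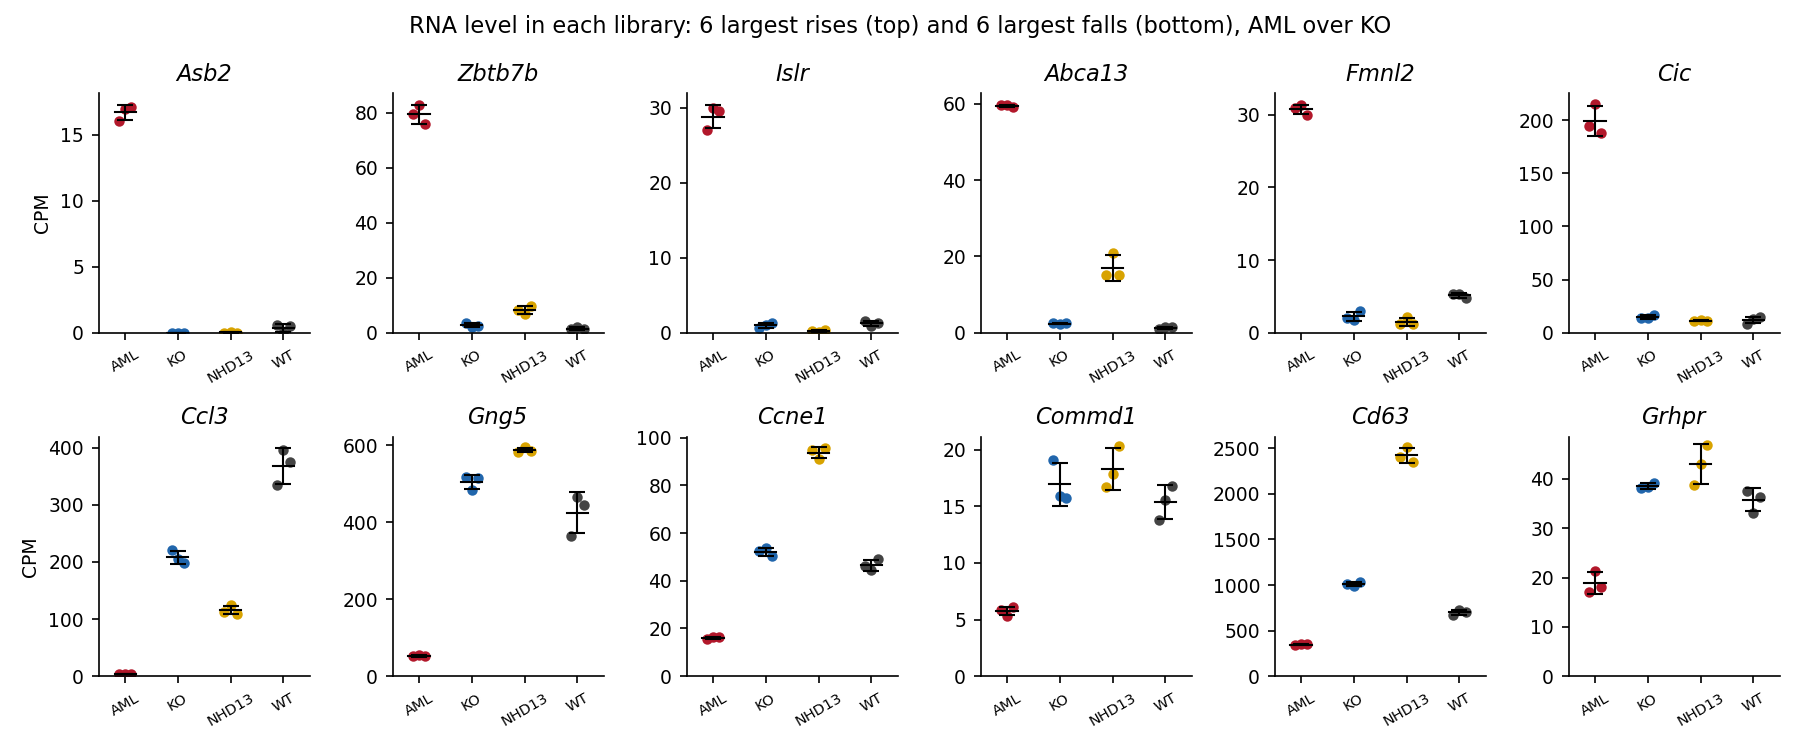
RNA level (CPM) in each of the 3 libraries of AML, KO, NHD13 and WT for the 6 genes with the largest rise (top) and the 6 with the largest fall (bottom) among genes with a selected region at the promoter; black lines are the mean and the SD. No AML library overlaps a KO library in any of the 12 panels because the rule took only genes whose libraries do not overlap.

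Of the 10 regions with the most sites, 6 overlapped promoter windows, and the tested genes there gave no single direction. Phf2, a histone demethylase, averaged 79.9 ± 0.314 CPM in AML and 10.6 ± 0.257 CPM in KO (SD, n = 3 each), 7.52-fold higher, over a region of 165 sites at 0.312 in AML and 0.526 in KO. Rai1, whose region of 167 sites overlaps no promoter window and lies 536 bases from the start, averaged 169 ± 8.26 CPM in AML and 15.9 ± 0.849 CPM in KO. Gng10 averaged 0.773 ± 0.526 CPM in AML and 1.36 ± 0.157 CPM in KO, with an adjusted p of 0.0609 in edgeR's test, and Efna2 was not tested because of low counts. Jak2, the cytokine receptor kinase, was named outside the rule, after its values were seen. It averaged 68.5 ± 1.85 CPM in AML and 30.8 ± 0.739 CPM in KO, with 118 sites at 0.195 in AML and 0.402 in KO. Qk, an RNA-binding protein gene, had 107, 103 and 103 CPM in AML and 107, 101 and 101 CPM in KO, with an adjusted p of 0.820 in edgeR's test. Sppl3 averaged 38.3 ± 1.15 CPM in AML and 33.7 ± 2.72 CPM in KO, with an adjusted p of 0.105. After the length correction both passed as lower in AML (log2 change -0.89, adjusted p = 3.96e-10 for Qk; -0.52, adjusted p = 4.08e-05 for Sppl3; edgeR). With upper-quartile factors Qk also passed as lower (-0.17, adjusted p = 0.0327), and Sppl3 did not pass (-0.01, adjusted p = 0.952).

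At the imprinted locus the 2 genes moved apart. Zrsr1 averaged 8.70 ± 0.443 CPM in AML and 3.48 ± 0.557 CPM in KO (log2 change 1.32 ± 0.19 SE; edgeR, adjusted p = 2.45e-06). Commd1 averaged 5.76 ± 0.392 CPM in AML and 16.9 ± 1.91 CPM in KO (log2 change -1.55 ± 0.12 SE; edgeR, adjusted p = 8.47e-10). The AML and KO libraries did not overlap for either gene, and both directions held with the length correction. Without strand the reads of overlapping genes cannot be told apart, and the sources used here do not say whether counting used the strand. Neither gene passed edgeR's test in KO against NHD13, with adjusted p of 0.435 and 0.441, nor in NHD13 against WT, with 0.340 and 0.0689.

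Of 40 imprinted genes placed, 16 (40%) had a selected region, against 20.04% of protein-coding genes, and their 26 regions had a median of 0.441 in AML and 0.774 in KO. Genes with a region had a median body of 78.8 kb, against 28.7 kb for the list. In RNA, 12 of 23 tested rose, 7 fell and 4 did not pass, and after the length correction 10 were higher and 8 lower. Over all tested genes 42.8% were higher and 39.5% lower before that correction. Igf2r, a receptor that clears a growth factor, rose to 34.1 ± 0.783 CPM in AML, against 4.09 ± 0.447 CPM in KO, and its antisense partner Airn fell to 1.06 ± 0.0799 CPM, against 1.94 ± 0.309 CPM in KO (SD, n = 3 each). Gnas, a G protein gene with 79 sites, averaged 35.6 ± 4.25 CPM in AML and 10.9 ± 1.65 CPM in KO. Peg10, Peg3 and Snrpn also held regions and were not tested because of low counts. None of the 26 regions lay in an H3K36me3 peak of either list, where 3.97% and 0.505% of all selected regions did, shares at which 0 of 26 is no contrast.

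Neutrophil granule and maturation genes are short, and 9 held selected regions. The list includes Gsr, glutathione reductase, and Cebpe, a transcription factor, which encode no granule protein and hold 5 of the list's regions. Of 20 genes, 9 (45%) had a region, with a median body of 3.51 kb, against 20.04% of protein-coding genes, and their 15 regions had a median of 0.545 in AML and 0.825 in KO. This list was chosen with earlier results of these data known. Of the 15 regions, 12 overlapped a region lower in NHD13 than in WT, none overlapped one higher in NHD13, and 10 lay in an H3K36me3 peak of NHD13 AML. Over all selected regions these shares were 14.4%, 1.54% and 3.97%. They depended on region size, and for selected regions of 20 to 49 sites they were 31.6%, 5.51% and 9.99%. At Ngp, a granule protein gene, the region was at 0.687 in AML and 0.919 in KO, and the overlapping region at 0.688 in NHD13 and 0.897 in WT. At Fcnb, a neutrophil lectin gene, the levels were 0.464 in AML, 0.823 in KO, 0.470 in NHD13 and 0.901 in WT. At Cebpe, a factor of granulocyte maturation, a region of 113 sites was at 0.632 in AML and 0.898 in KO, and at 0.552 in NHD13 and 0.857 in WT.

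**Figure D5:**
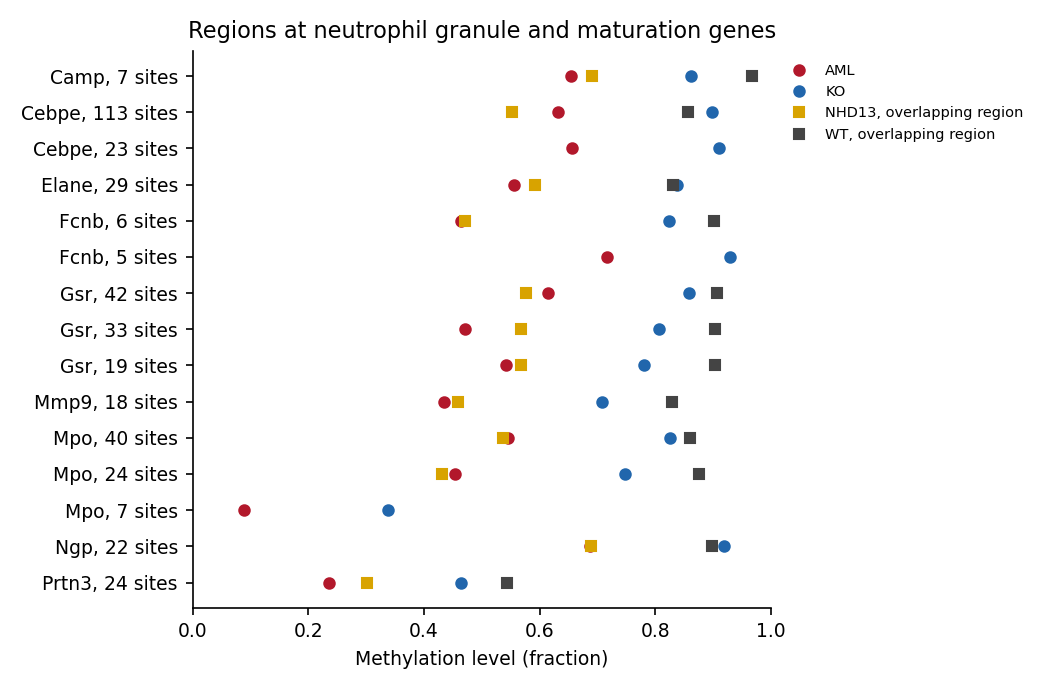
Methylation level (fraction) of each of the 15 selected regions at neutrophil granule and maturation genes, with AML and KO from the table used for selection (circles) and NHD13 and WT from the overlapping region of the other table (squares; 3 regions have none). AML lies below KO by the rule of selection, and NHD13 lies below WT in the 12 regions with all 4 values because each overlaps the list of regions lower in NHD13; 2 of the Gsr regions share 1 region of the other table.

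RNA of these genes did not follow a single order of groups. Ngp averaged 3574 ± 56.98 CPM in AML and 464 ± 25.4 CPM in KO, and 16840 ± 2590 CPM in NHD13 and 150.1 ± 6.36 CPM in WT (SD, n = 3 each). Camp, an antimicrobial peptide gene, averaged 1231 ± 16.5 CPM in AML and 351.9 ± 10.7 CPM in KO, and 9854 ± 776 CPM in NHD13 and 58.3 ± 7.46 CPM in WT. Mmp9, a matrix protease, averaged 240.9 ± 1.76 CPM in AML and 12.8 ± 2.65 CPM in KO. Elane and Mpo, genes of primary granule proteins, were lower in AML. The protease gene Elane was at 2478 ± 61.3 CPM in AML and 19332 ± 1671 CPM in KO, and the peroxidase gene Mpo at 6327 ± 147 CPM in AML and 25056 ± 976 CPM in KO. Over the list, 14 of 20 tested rose in AML against KO, 5 fell and 1 did not pass (edgeR, adjusted p under 0.05). Over all tested genes 42.8% were higher and 39.5% lower. The list's summed RNA was lower in AML, at 27494 to 27925 CPM, against 57927 to 61468 CPM in KO. All 20 were lower in KO than in NHD13, where 20.3% of all tested genes were. All 20 were also higher in NHD13 than in WT, where 25.3% of all tested genes were. Gsr, with 3 regions that were lower in AML, averaged 469 ± 1.92 CPM in AML and 455 ± 10.6 CPM in KO and did not pass the test. Its call depended on the scaling, since it passed as lower in AML with upper-quartile factors (log2 change -0.15, adjusted p = 0.0287) and as higher after the length correction (0.25, adjusted p = 0.000280; edgeR).

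In the other lists the share of genes with a region is to be read against the 20.04% of protein-coding genes, whose median body is 17.5 kb. Stem and progenitor genes had 13 regions at 7 of 20 genes, which are long (median body 62.1 kb), among them Runx1 with 4, Kit with a region of 25 sites at 0.531 in AML and 0.853 in KO, and Flt3. Erythroid genes had 7 regions at 4 of 21 genes (19.05%), near that background, while the list's summed RNA was 472 to 475 CPM in AML and 5629 to 6032 CPM in KO. Tal1, an erythroid and stem cell factor, had a region of 111 sites at 0.068 in AML and 0.287 in KO, and it averaged 24.0 ± 1.41 CPM in AML and 19.6 ± 0.267 CPM in KO, a difference whose sign changed with the length correction. Megakaryocyte genes had 7 regions at 5 of 14 genes and summed to 203 to 208 CPM in AML and 630 to 639 CPM in KO. Of 19 Hox and cofactor genes 4 held a region (21.1%), also near it. At Meis1, a Hox partner, it had 32 sites at 0.174 in AML and 0.441 in KO. Germline genes silenced by methylation had a region at 3 of 38 genes (7.89%). In AML against KO 3 of 13 tested rose and 7 fell, where 42.8% of all tested genes were higher and 39.5% lower.

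The enzymes of DNA methylation were measured as well. None of the 10 writer and maintenance genes placed held a selected region. In AML against KO 8 of 9 tested were higher and 1 lower, where 42.8% of all tested genes were higher and 39.5% lower. Dnmt1, the maintenance methyltransferase, averaged 461 ± 12.5 CPM in AML and 131 ± 17.7 CPM in KO (SD, n = 3 each), a log2 change of 1.81 ± 0.11 (SE; edgeR, adjusted p = 1.07e-09). Dnmt3a averaged 164 ± 8.33 CPM in AML and 42.0 ± 6.27 CPM in KO, Dnmt3b 131 ± 3.48 CPM in AML and 47.3 ± 2.53 CPM in KO, and Uhrf1, which recruits Dnmt1, 286 ± 6.15 CPM in AML and 103 ± 10.1 CPM in KO. Cdca7 was the 1 that fell, to 193 ± 2.70 CPM in AML, against 247 ± 11.7 CPM in KO. With the length correction 6 were higher and 2 lower, and Uhrf2 and Hells changed sign.

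Of the demethylation genes, 4 of 10 rose, 3 fell and 3 did not pass. Tet3 averaged 142 ± 4.95 CPM in AML and 31.0 ± 1.03 CPM in KO, and Tet2 75.3 ± 4.27 CPM in AML and 30.3 ± 2.99 CPM in KO. Idh1 and Idh2, which make the cofactor of the Tet enzymes, fell 2.61-fold and 2.18-fold. Tet1 had the list's only region, 8 sites at 0.329 in AML and 0.8996 in KO, and averaged 11.7 ± 0.399 CPM in AML and 9.81 ± 1.07 CPM in KO, with an adjusted p of 0.0543 in edgeR's test and the opposite sign after the length correction. Of the CpG readers 11 of 14 rose and 1 fell. Kdm2b, a reader of unmethylated CpGs with 4 regions, averaged 87.8 ± 1.96 CPM in AML and 21.5 ± 0.811 CPM in KO, and Kdm2a, with 2 regions, 118 ± 5.03 CPM in AML and 27.4 ± 1.87 CPM in KO. All 8 genes of the H3K36 methylation list were higher in AML, Setd2 among them, and 6 after the length correction. That list joins methyltransferase genes with the demethylase genes Kdm4a, Kdm4b and Kdm4c. The counts of all these lists are to be read against the 42.8% higher and 39.5% lower over all tested genes. The trend of the RNA change with transcript length also stands beside these counts, and its part in them was not tested beyond the corrected counts.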

How the data were processed

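RNA-seq covered 12 libraries (3 per group), bisulfite sequencing 4 libraries and H3K36me3 ChIP-seq 2 libraries, 18 samples in all, grouped by their genotype labels. The count table holds whole-number counts per Ensembl gene as deposited by the authors, and the FPKM table their scaling by gene length and depth, with HISAT2 2.0.5 and HTSeq 0.9.1 on mm10 named in the submitters' processing notes. Methylation levels are the authors' fraction of methylated cytosines per region, from region tables that set 1 library against 1 other, and each region has a summed score from the authors; the same notes name Bismark 0.19.0, while the region caller and coverage are not stated there. The authors' broad peaks carry a fold enrichment, a −log10 p and q and a score per peak, from 1 library each, with Bowtie2 2.2.9 and MACS2 2.1.1.20160309 in the notes and no input sample named.

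Members and gene lists were chosen with earlier results of these data known. Which column is which group was checked on regions listed with identical borders in 2 tables, where 2233 of 2236 KO levels were within 0.01. Regions were joined to RefSeq genes (GRCm38.p6 tables, bodies widened by 1000 bases) and promoter windows by at least 1 shared base; windows on 1 of the 19 chromosomes were not used, which leaves 18. Shares have 95% Wilson intervals. Counts were tested with edgeR 4.0.16 (R 4.3.3; TMM factors, filterByExpr, quasi-likelihood F test, Benjamini-Hochberg adjustment over 16233 genes, threshold 0.05) in 1 fit of all 12 libraries with 8 residual degrees of freedom. CPM values use TMM-scaled library sizes, and replicates of 1 group differed by more than sampling noise (chi-square per degree of freedom 1.91 to 27.1). The genes named are the 10 regions with the most sites, the 10 deepest falls of 20 or more sites, the 10 genes with the most regions, the 10 largest rises and falls at a region and the 6 of each at a promoter (at least 10 CPM in the higher group, libraries not overlapping), and members of the gene lists. Alternatives were DESeq2 1.42.0, other scalings and filters, a transcript-length correction (added after seeing the data), other overlaps and other limits of the rule.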

Additional observations from a re-analysis of the deposited data

How the results depend on the processing

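Of the counts and shares recomputed under the alternatives, 150 differed from the reported value by at most 1.5 times (counts) or lay within its Wilson interval (shares). Within that tolerance the number of promoter genes lower in AML ran from 19 to 30, against 20 reported. Also within it, the length correction reversed the order in NHD13 against WT. There 790 genes at a region were higher and 902 lower before it, and 921 and 805 after it. With a fall of at least 0.3, fewer genes were left: in AML against KO 442 genes at a region were higher and 248 lower, and 17 promoter genes were higher and 3 lower; in KO against NHD13 208 were higher and 238 lower; in NHD13 against WT 255 were higher and 310 lower. The share in NHD13 AML peaks was 3.25% with stricter peaks, 2.47% with a fall of at least 0.3 and 8.17% for regions of 10 or more sites, and the share in KO AML peaks 0.335%, 0.255% and 1.08% under the same settings. The share over regions lower in NHD13 was 12.6% with at least 0.5 of the region covered, 6.71% with stricter regions, 12.8% by the middle base (added after seeing the data), 11.6% with the larger fall and 26.9% for 10 or more sites. The share over regions higher in NHD13 was 1.23%, 0.593%, 1.32%, 0.974% and 3.88% under those settings, 1.86% at 0.06 and 1.29% at 0.04 sites per base. The cause of these shifts was not tested. Leaving out each AML or KO library in turn changed no count of calls by over 1.5 times; NHD13 and WT libraries were not left out in turn. Other widths of the gene window do not apply to promoter genes.

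Same-numbered libraries did not deviate together (correlations from -0.0876 to 0.109), so the numbers do not pair the samples; with the replicate block 1395 genes at a region were higher and 739 lower in AML against KO, and 60 and 21 at a promoter. The methylation and ChIP comparisons rest on 1 library per group, coverage is unknown, regions of 4 sites rest on few cytosines, and organ and sort differ between AML and KO.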
